A study of Drosophila melanogaster with 48 samples.

Results

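Non-LTR retrotransposons are the LINE-like mobile elements of the fly genome, and their transcripts were followed here through ageing, injury and mating in the brain of Drosophila melanogaster. The deposited count tables hold 23932 rows, of which 17869 are annotated genes and 6063 are other rows, mostly single transposon insertions. Insertions were chosen by name. A row was taken when the part of its annotated name before the brace was 1 of 32 listed non-LTR families, as in HeT-A{}6262, which gave 742 insertions in 27 families. The other 5 listed families (Doc4-element, G-element, I-element, R1A1-element and R2-element) had no row under the listed spelling. A further 255 rows carry the short form of a listed name, such as F for F-element or R2 for R2-element. They are not counted among the 742 and are described at the end. Insertion sequences are not used here, and insertions are given by position on the dm6 assembly with the insertion names of Ensembl release 115.

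A non-LTR element moves when its RNA is copied into DNA at a new site. In most families a complete copy encodes the reverse transcriptase and endonuclease for this. Many copies are cut short at the 5′ end and can no longer move, yet they can still be read as part of the RNA of a gene around them. The telomeric families HeT-A and TART do this work for the chromosome ends, which in Drosophila are extended by retrotransposition and not by telomerase. In gonads the Piwi-interacting RNA (piRNA) pathway silences such elements, and in somatic cells small interfering RNAs and heterochromatin contribute.

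Brains came from 4 kinds of fly: males, females mated to wildtype males (wildtype-mated), females mated to SP0 males, which lack sex peptide (SP0-mated), and females kept virgin. Each kind of fly received very mild head trauma on day 3 after eclosion (D3Inj) or sham treatment, and brains were dissected on day 45 (6 weeks after injury) or on day 4 (1 day after injury). This gave 16 groups of 3 libraries, each library being an independent cohort of 40 flies, so that p-values measure the spread between such cohorts. Per the methods, the flies were progeny of nSyb-GAL4 males and w1118 females and were labelled wild type, and all groups shared this background. The insertions counted are those of the reference genome and need not all be present in these flies. Libraries were made from total RNA after removal of ribosomal RNA.

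Counts summed to 21495740 to 60637359 per library (median 35543946). The header inside 47 of 48 tables names another sample than the record of the deposit, and the header was used throughout, with its word young read as D3Inj. With samples taken from the record instead, no insertion and no family was called for age or sex, so every such result below rests on the headers. By the headers, the male-specific RNAs roX1 and roX2 had a summed level of at least 5743 CPM (counts scaled to 1000000 per library) in every male library and at most 57.6 CPM in every female library. Neuronal markers (elav, nSyb, Syt1, brp and Syn) were abundant in all libraries, at 5884 to 6556 summed CPM on day 45 and 7863 to 8966 on day 4. Gut markers reached 989 to 1664 summed CPM in 4 day 4 libraries (males D3Inj library 3, virgin sham libraries 2 and 3, and wildtype-mated sham library 3), against at most 71.6 CPM in the other libraries. Leaving out these 4 libraries kept every count of called insertions and families within 1.5 times its value.

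The 742 insertions took a small, even share of each library. They received 30758 to 89704 counts per library, equal to 1178 to 1556 CPM (median 1427). Of the 742, 614 had a count in at least 1 library and 128 were at 0 in all 48. A library had a median of 265.5 insertions at 0. Together Cr1a, Doc and HeT-A held 66.5% of all counts, and the 10 most abundant insertions held 33.2%. By place, 429 insertions lay between genes, 280 in introns and 33 overlapped an exon. Of the 313 inside genes, 138 were on the strand of the gene and 175 on the opposite strand. Lengths ran from 20 to 66001 bp with a median of 912.5 bp. Whether the counting used strand, and how it treated reads that match several copies, is not given in the sources used here, so reads of an insertion and of the gene around it, or of near-identical copies, cannot be told apart.

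The 4 insertions with the highest mean CPM differed in their surroundings, and their levels are given per kilobase (kb) of insertion. Cr1a{}6093 (FBti0064154, chr4:455789-459194, 574 bp from asRNA:CR45126) averaged 25.5 CPM per kb over the 48 libraries. Cr1a{}1607 (FBti0059668, chr3L:23279468-23283577) lies in an intron of nAChRalpha4, a nicotinic acetylcholine receptor subunit of neurons, and averaged 24.6 CPM per kb. Doc{}CHKov1[Doc1420] (FBti0019430, chr3R:25324412-25328927) is the Doc copy that interrupts the coding gene CHKov1 and averaged 19.2 CPM per kb. HeT-A{}6278 (FBti0102121, chr4:1278430-1281474), near the end of chromosome 4, averaged 18.8 CPM per kb.

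The first question was how the insertions changed with age. Day 45 was compared with day 4 within each kind of fly, and then as the mean of the 4 kinds, with D3Inj and sham libraries averaged. A filter on low counts left 15640 features, among them 411 of the 742 insertions, and 331 were not tested. An insertion could pass this filter through the group where it was high, so counts over the 411 do not speak for all 742. By edgeR's quasi-likelihood test with Benjamini-Hochberg adjustment over all features (called at an adjusted p under 0.05), 104 of the 411 were higher on day 45 and 152 were lower, which is 25.3% and 37.0%. Over all features 33.7% were called higher and 32.4% lower. The median log2 fold change was -0.12 over the 411 insertions, -0.002 over all features and -0.12 over the 2328 other transposon rows tested. Insertions called higher were scarce, with a median level of 0.582 CPM, and those called lower had a median of 3.50 CPM. Since bulk RNA was sequenced, fewer cells of a type and less RNA per cell cannot be told apart in any of these differences.

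Each kind of fly gave calls in both directions. In males 77 insertions were higher and 96 lower, with 22.9% and 21.3% of all features called. Wildtype-mated females had 55 higher and 109 lower, against 22.1% and 21.0% of all features, and virgin females had 65 higher and 102 lower, against 21.8% and 19.0%. For SP0-mated females the counts were 52 higher and 115 lower, against 22.4% and 20.7%. The 4 kinds share no library but share an estimate of the spread. Called higher in all 4 were 34 insertions, and 79 were lower in all 4. The share of all features called in all 4 was not computed. Doc rows, which cannot be read as independent, made up 58 of those lower in males. In each kind of female they made up 60 of those lower. Only HeT-A{}6262 and HeT-A{}6274 were called in opposite directions in different kinds, and 165 insertions were called in none.

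Summed by family, 8 of 25 tested families were higher on day 45 and 10 were lower, in a fit in which every transposon family was 1 row and 34.5% of all features were called higher and 34.0% lower. F-element and X-element had too few counts under the listed spelling to be tested (64 and 63). Their rows under the short names F and X held 496022 and 101991 counts and are described at the end. Doc3-element, jockey2, G6, G4 and baggins were higher in every kind of fly, and TART-B, Doc, Juan, Cr1a and Fw3 were lower in every kind. The jockey, Fw2, Ivk, Rt1b, Rt1c, TART-A and TART-C sums were not called for the mean of the 4 kinds. Rt1a (0.27 on the log2 scale), Doc2-element (0.44, adjusted p = 0.045 by edgeR, a single copy) and G2 (0.15, adjusted p = 0.039 by edgeR) were also higher. The Doc2-element and G2 calls were lost when some single libraries were left out. Rows under the short names Doc2 and Doc3, which hold more counts than the listed spellings, were summed apart and were lower with age. BS (-0.24), Helena (-0.22), G3 (-0.19), G5 (-0.18) and HeT-A (-0.11) were also lower. With insertions between genes alone the sums of Helena (0.97), G3 (0.14) and G5 (0.02) turned to the higher side.

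**Figure D1:**
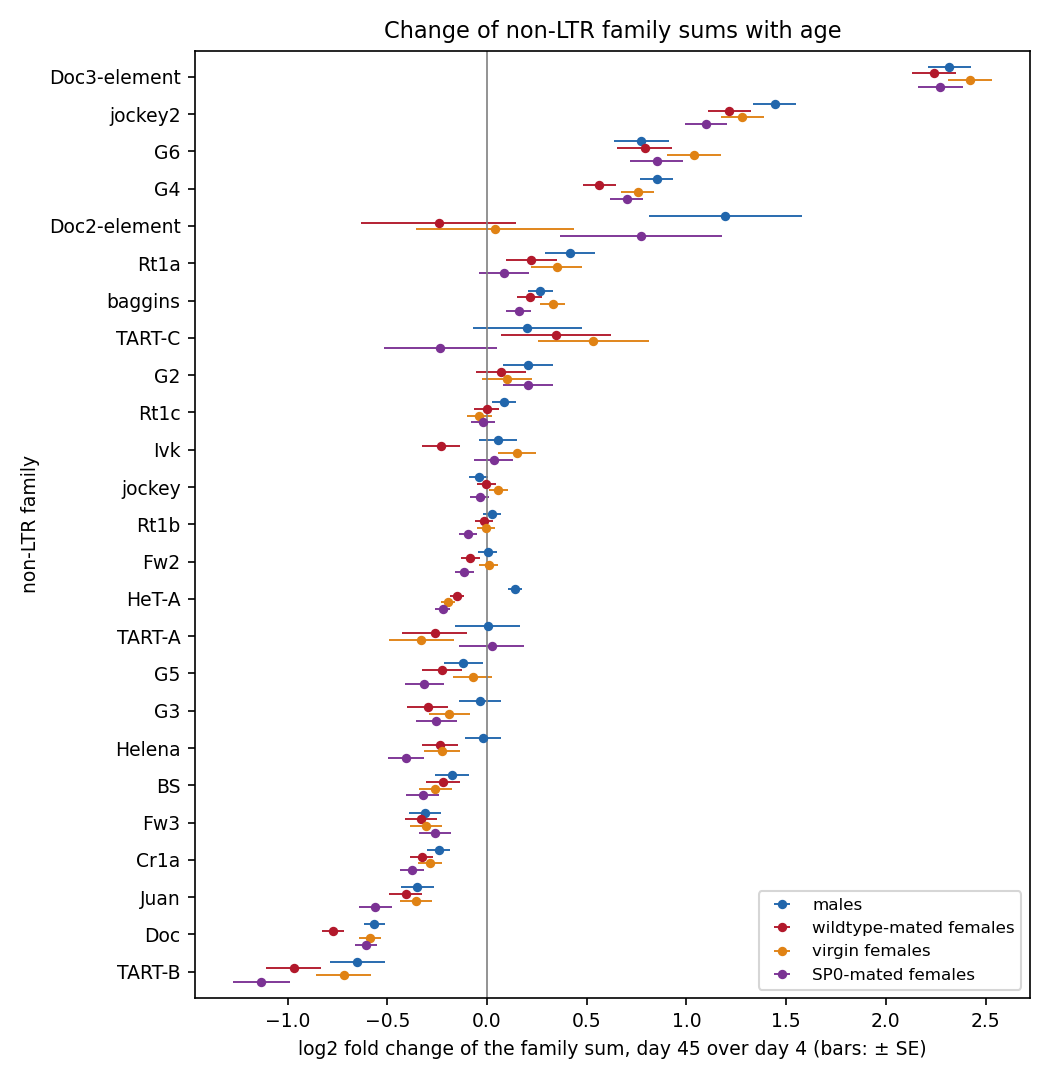
Log2 fold change of each non-LTR family sum between day 45 and day 4 (x axis, bars ± SE) for males, wildtype-mated, virgin and SP0-mated females (coloured points), families ordered by their mean change on the y axis. Doc3-element and jockey2 lie far to the right in all 4 kinds, Doc and TART-B to the left, and HeT-A is right of 0 in males and left of 0 in the 3 kinds of female. Sums hold rows under the listed spelling only, without the short forms.

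Doc, a family of the jockey clade with many full-length copies, was lower on day 45 almost throughout. The family summed to 266, 283 and 301 CPM (lowest, median and highest of 6 libraries) in males on day 45, against 382, 421 and 441 CPM on day 4. Wildtype-mated females had 256, 273 and 285 CPM on day 45, against 438, 458 and 497 CPM on day 4. In virgin females the sum was 261, 316 and 328 CPM on day 45, against 438, 454 and 466 CPM on day 4. No day 45 library of any kind reached the lowest day 4 library of its kind, and SP0-mated females were no exception, with 238, 296 and 316 CPM on day 45 against 392, 441 and 462 CPM on day 4. Averaged over the 4 kinds the family changed by -0.63 on the log2 scale (SE 0.027, adjusted p = 1.1e-22 by edgeR), with 285 ± 24.8 CPM on day 45 and 441 ± 27.2 CPM on day 4 (SD, n = 24 libraries each).

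Of 65 Doc insertions tested, 62 were lower, with log2 fold changes between -1.32 and -0.23 and a median of -0.90. The fall did not sort by length or place: 41 of 43 copies of at least 4000 bp and 21 of 22 shorter copies were lower, as were 29 of 29 copies between genes. Inside genes, 11 of 13 Doc copies in genes called higher were lower, as were 13 of 13 in genes called lower and 8 of 8 in genes not called. The size of the change still varied with that of the gene, with a Pearson r of 0.52 across these 34 copies, which share genes and libraries. Doc{}966 (FBti0020077, chr3L:9392530-9395289), in an intron of CG4080, had the largest fall among all insertions, a log2 fold change of -1.32 (SE 0.085), while CG4080 itself stood at 0.07. Doc{}1029 (FBti0020140, chr3L:17863843-17868557), between genes, ranged from 2.71 to 5.20 CPM over the 24 libraries of day 45, against 7.40 to 9.96 CPM over those of day 4. Other large falls were those of Doc{}RR48382 (-1.24), Doc{}391 (-1.17), Doc{}942 (-1.12), Doc{}404 (-1.07), Doc{}1052 and Doc{}1352 (both -1.06).

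The separate Doc rows cannot be read as independent. Doc{}RR48365 (chrY:2037759-2042438) is annotated on the Y chromosome, which females lack, and still received counts in all 36 female libraries, 520 on day 45 and 1016 on day 4. Which sequence gave these counts in females was not tested. Rows of near-identical copies therefore cannot be assumed to be separate measurements. The other 346 insertions tested, without Doc, gave 102 higher and 90 lower, with a median log2 fold change of -0.04.

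Only 2 Doc copies were higher on day 45, and both lie in genes that were higher. The first of them was singled out after its value was seen. Doc{}2375 (chr3L:23620654-23625375) had a log2 fold change of 0.63 (SE 0.081) in an intron of AGO3, which stood at 1.80. Doc{}CHKov1[Doc1420] took 24.2% of the family's counts and had a log2 fold change of 0.13 (SE 0.044), with CHKov1 at 0.60. Its levels overlapped between the days, from 77.8 to 103 CPM on day 45 and from 65.6 to 100.4 CPM on day 4.

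**Figure D2:**
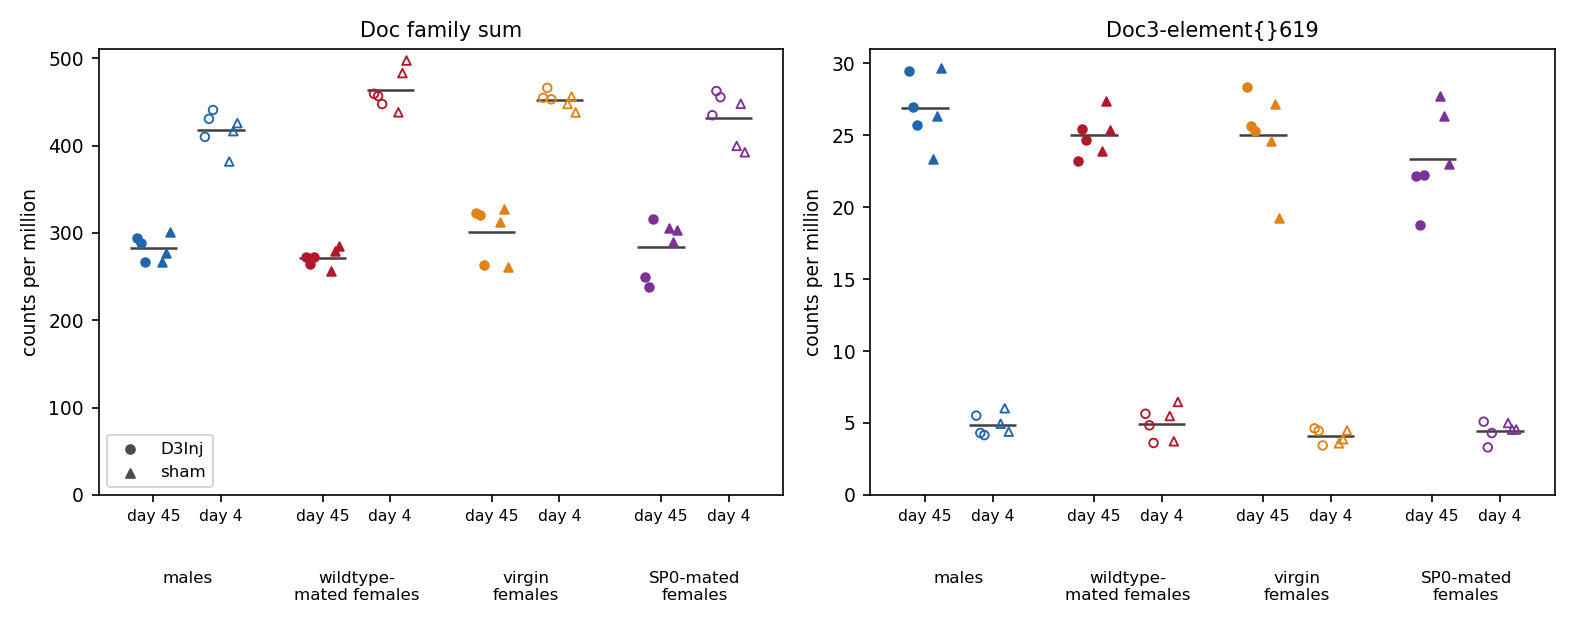
Level in CPM of the Doc family sum (left) and of the single insertion Doc3-element{}619 (right) in each of the 48 libraries, by kind of fly and day (x axis; circles D3Inj, triangles sham, horizontal lines the mean of 6 libraries). Doc is lower on day 45 (238 to 328 CPM) than on day 4 (382 to 497 CPM), and Doc3-element{}619 is higher (18.8 to 29.7 CPM on day 45, 3.30 to 6.46 CPM on day 4).

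The largest rise of a family sum under the listed names, that of Doc3-element, rested on a single copy. Another 16 rows under the short name Doc3 held 49965 counts, and their sum was lower with age. Doc3-element{}619 (FBti0018908, chr2R:5107004-5108157, between genes, 8833 bp from gus) held 96.4% of the 28604 counts under the listed name. Its lowest, median and highest levels were 23.4, 26.6 and 29.7 CPM in males on day 45, against 4.15, 4.67 and 6.02 CPM on day 4. Wildtype-mated females had 23.2, 25.0 and 27.4 CPM on day 45, against 3.61, 5.16 and 6.46 CPM on day 4. Every day 45 library lay above every day 4 library, also in virgin females (19.2 to 28.3 CPM against 3.44 to 4.62 CPM) and SP0-mated females (18.8 to 27.7 CPM against 3.30 to 5.09 CPM). The log2 fold change was 2.45 (SE 0.057) for the insertion and 2.31 (SE 0.055, adjusted p = 2.6e-31 by edgeR) for the sum under the listed name.

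Its neighbours in the same stretch of 2R also rose. Fw2{}2920 (FBti0060981, chr2R:5098996-5106837) had 8.02 to 14.5 CPM on day 45, against 0.775 to 2.66 CPM on day 4, a log2 fold change of 2.52 (SE 0.082). jockey2{}2577 (FBti0060638, chr2R:5115281-5115978), 1012 bp from gus, held 51.6% of jockey2 counts and had 3.90 to 11.8 CPM on day 45, against 0.939 to 2.64 CPM on day 4. Neither insertion had overlapping days, although the Fw2 family as a whole was not called, at 73.8 ± 5.6 CPM on day 45 and 76.1 ± 3.7 CPM on day 4 (SD, n = 24 each). The jockey2 sum averaged 12.3 ± 1.8 CPM on day 45 and 5.12 ± 0.62 CPM on day 4 (SD, n = 24 each), a log2 fold change of 1.26 (SE 0.054).

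Several rises started from almost no counts on day 4. Fw2{}3781 (chr2R:5363703-5363782), only 80 bp long, had 199 counts over 24 libraries on day 45 and 2 on day 4, a ratio of 93.1 with a 95% counting interval of 25.4 to 774. It lies in lncRNA:CR42646, whose log2 fold change was 5.41. Cr1a{}638 (chr2R:5283685-5284144) had 438 counts on day 45 and 13 on day 4, a ratio of 31.5 (interval 18.3 to 59.7). The gene around it, d4, stood at 0.21, far below the change of the copy. baggins{}662 (chr2R:5404717-5408999), 4745 bp from stw, had a log2 fold change of 3.01 (SE 0.17), with 0.868 to 1.96 CPM on day 45 against 0.035 to 0.547 CPM on day 4. The ratio intervals cover counting error only.

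Copies of a family did not all move alike. G4 rose by a log2 fold change of 0.72 (SE 0.042), with 22.6 ± 2.1 CPM on day 45 and 13.8 ± 1.7 CPM on day 4 (SD, n = 24 each), and 6 of its 7 tested copies were higher. The exception was its most abundant copy, G4{}1220 in CG14669, at -0.68. In G6, 2 of 7 tested copies were called, both higher. G6{}RR48300 (chr3L:24667457-24669498) had 0.574 to 3.53 CPM on day 45 against 0.186 to 1.25 CPM on day 4, and G6{}RR48310 on X had a log2 fold change of 2.96 (SE 0.48). Among the R1-like Rt1 families, 5 insertions were higher and 1 lower of 15 tested in Rt1a, 12 and 5 of 33 in Rt1b, and 6 and 2 of 13 in Rt1c.

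Cr1a, the most numerous family with 152 rows, moved both ways. Of 88 Cr1a copies tested, 33 were higher and 31 lower, while the sum fell, with 404 ± 33.9 CPM on day 45 and 499 ± 37.4 CPM on day 4 (SD, n = 24 each; log2 fold change -0.31, SE 0.029). The most abundant copies were lower. Cr1a{}1607 had 33.5 to 116 CPM on day 45 against 72.1 to 197 CPM on day 4, a log2 fold change of -0.49 (SE 0.096), and Cr1a{}6093 had 61.8 to 89.1 CPM on day 45 against 87.2 to 118 CPM on day 4, at -0.42 (SE 0.027). Days overlapped for both. Cr1a{}2833 in Gyf was lower by a smaller amount, at -0.34 (SE 0.030). Juan, a jockey-clade family with 4 of 10 tested copies lower and none higher, summed to 11.9 ± 1.1 CPM on day 45 and 15.9 ± 1.4 CPM on day 4 (SD, n = 24 each; log2 fold change -0.42, SE 0.041).

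Insertions that rose lay close together. When called insertions of the same direction were joined across gaps of up to 100000 bp, 77 of the 104 rising insertions fell in 4 stretches of 5 or more. This is a description of the calls, and no test was made of it. The longest stretch, chr2R:4769509-5659634, held 40 rising insertions of 15 families, with 61 insertions tested there and 4 lower. Of 33 annotated genes tested in it, 19 were higher and 6 lower. A second stretch, chr3L:23298934-23813054 around AGO3, held 26 rising insertions of 12 families, with 34 tested and 2 lower, and 5 of its 9 tested genes were higher and 3 lower. Both lie towards the centromere of their arm. Outside these 2 stretches 38 of 316 tested insertions were higher and 146 were lower. The stretches were drawn from the rising insertions themselves, so a lower share outside them follows from that choice.

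Smaller stretches had their own members. On chr2L:22323886-22390750, 6 Cr1a copies around Marf1 were all higher, among them Cr1a{}1592 at 3.18 (SE 0.36), and Marf1 stood at 1.62. The stretch chr2R:4492996-4638173 was mixed, with 5 insertions higher and 3 lower of 11 tested, and 2 genes higher and 2 lower of 6 tested. In AGO3, jockey{}1878 had a log2 fold change of 3.50 (SE 0.45), while Rt1b{}5878 (2.62, SE 0.29) and Cr1a{}5902 (2.60, SE 0.34) lie 73940 and 95593 bp from that gene. Cr1a{}688, on 2R, was higher by 2.55 (SE 0.51). Falling insertions formed stretches too, with 12 of 20 tested insertions lower on chr4:1150425-1320140, 9 of 9 on chr3L:23145011-23283577 in and beside nAChRalpha4, and 5 of 6 on chrX:22697553-22727474 in lncRNA:CR44997. Of 8 genes tested in the chromosome 4 stretch, 5 were higher and 3 lower. The 3 genes tested in the 3L stretch and the 1 in the X stretch were lower. By chromosome arm, 47 insertions were higher and 19 lower of 111 tested on 2R, against 1 higher and 27 lower of 51 on 3R and 4 higher and 21 lower of 38 on chromosome 4. Of the 47 on 2R, 40 lay in the longest stretch described above. The share over all features of each arm was not computed, so these counts do not set the insertions apart from their arm.

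The calls of insertions inside genes were set beside those of the genes. Of 197 tested insertions inside a tested gene, 77 lay in genes called higher, and of these 33 were higher and 15 lower, 11 of the 15 being Doc. Of 95 in genes called lower, 1 was higher and 62 were lower. Of 25 in genes not called, 0 were higher and 12 were lower. Across the 197 insertions the 2 log2 fold changes had a Pearson r of 0.73 and a Spearman rho of 0.54, with r 0.83 for 116 insertions on the strand opposite to the gene, 0.56 for 81 on its own strand, and 0.78 for the 163 that are not Doc. These points are not independent, since insertions of a gene share its value and the libraries, and whether reads of the gene were counted for the insertion was not tested. Restricted to insertions between genes, 67 were higher and 62 lower of 201 tested, whereas 32 were higher and 87 lower of 196 in introns.

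**Figure D3:**
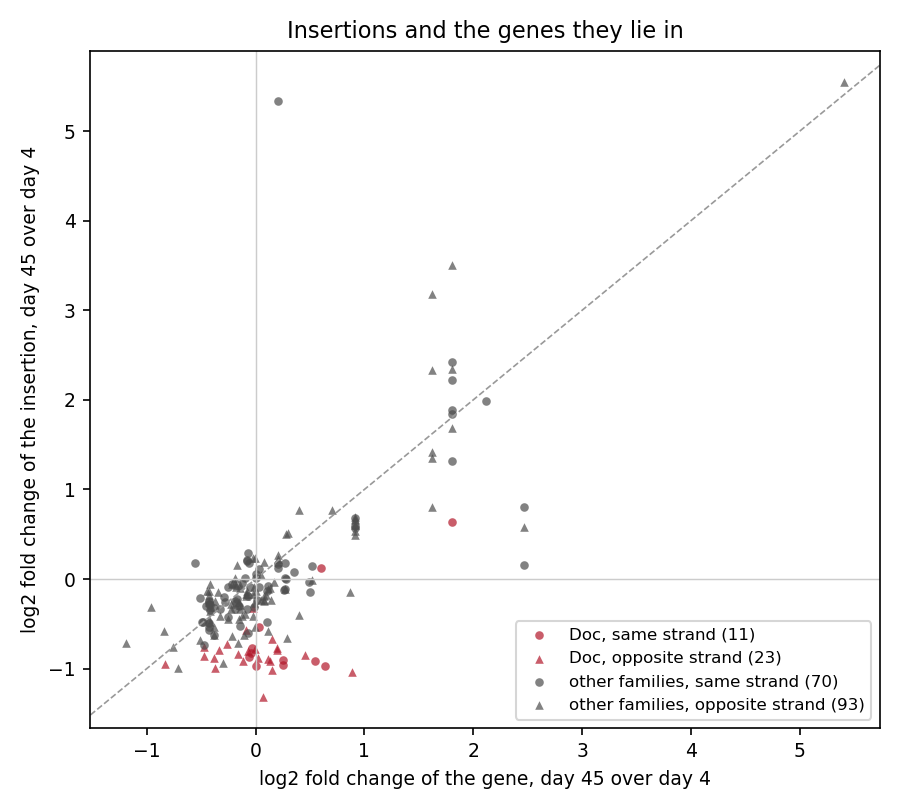
Log2 fold change with age of 197 insertions (y axis) against that of the gene each lies in (x axis), red for Doc and grey for other families, circles for insertions on the strand of the gene and triangles for the opposite strand, with the line of equal change dashed. Grey points rise with the change of the gene (r 0.78), and nearly all red points lie below 0 on the y axis whatever the change of the gene.

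Of the telomeric families, HeT-A and TART-B were called for the mean of the 4 kinds, both lower, although HeT-A was higher in males. HeT-A, the most abundant of them, summed to 125 ± 27.1 CPM on day 45 and 133 ± 13.4 CPM on day 4 over all flies (SD, n = 24 each), with 2 of 14 tested copies higher and 6 lower. TART-B, in effect the single copy TART-B{}1567 (chr4:1274141-1274608), had 1.33 to 3.14 CPM on day 45 against 3.25 to 5.60 CPM on day 4, a log2 fold change of -0.85 (SE 0.070) with no overlap between the days. TART-A, at 2.50 ± 0.54 CPM on day 45 and 2.74 ± 0.42 CPM on day 4, and TART-C, at 0.914 ± 0.351 CPM on day 45 and 0.775 ± 0.224 CPM on day 4 (SD, n = 24 each), were not called.

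Among HeT-A copies the largest change was a fall. HeT-A{}6268 (FBti0102111, chr4:1301834-1307750) had 4.44 to 9.98 CPM on day 45 against 9.47 to 15.0 CPM on day 4, a log2 fold change of -1.06 (SE 0.046). For the mean of the 4 kinds, the other copies lower on day 45 were HeT-A{}6256 (-0.77), HeT-A{}6276 (-0.59), HeT-A{}6262 (-0.48), HeT-A{}1685 (-0.27) and HeT-A{}6274 (-0.21). In males 2 of these went the other way. The male median of HeT-A{}6262 was 24.3 CPM on day 45 against 20.4 CPM on day 4. For HeT-A{}6274 it was 2.67 CPM against 1.89 CPM. The calls of HeT-A{}6274 and HeT-A{}1685 were lost when some single libraries were left out. Those higher, HeT-A{}4795 (0.17, SE 0.034) and HeT-A{}5504 (0.14, SE 0.049), are adjacent near the tip of X, at chrX:109756-114008 and chrX:114047-116407. HeT-A{}6278, with 44.3% of the family's counts, was not called at 0.03 (SE 0.023).

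HeT-A was higher in males than in females on both days. Its sum was 163, 168 and 183 CPM (lowest, median and highest of 6) in males on day 45, against 101 to 120 CPM in the 18 female libraries of that day. On day 4 males had 150.5, 154 and 157 CPM, against 116 to 134 CPM in females. Male and female libraries did not overlap on either day. The log2 fold change of males over females was 0.62 (SE 0.030) on day 45 and 0.30 (SE 0.026) on day 4, and the families called in either direction came to 2 of 25 on day 45 and 6 of 25 on day 4, against 18.8% and 21.5% of all features in those fits.

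Age moved the HeT-A sum in opposite directions in the sexes. The log2 fold change of day 45 over day 4 was 0.14 (SE 0.036, adjusted p = 0.0014) in males, and in females it was -0.15 (SE 0.037) after wildtype mating, -0.20 (SE 0.036) in virgins and -0.22 (SE 0.037) after SP0 mating, all by edgeR. The difference itself, the male change less the mean female change, was 0.33 (SE 0.042, adjusted p = 3.4e-06 by edgeR), and HeT-A was the only family called, with 2.16% of all features called. Male day 45 libraries lay above male day 4 libraries without overlap. Virgin and SP0-mated females had no overlap between the days in the other direction, with virgins at 101 to 117 CPM on day 45 against 124 to 130 CPM on day 4 and SP0-mated females at 101 to 117 CPM against 119 to 134 CPM, and wildtype-mated females overlapped (103 to 120 CPM against 116 to 134 CPM).

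**Figure D4:**
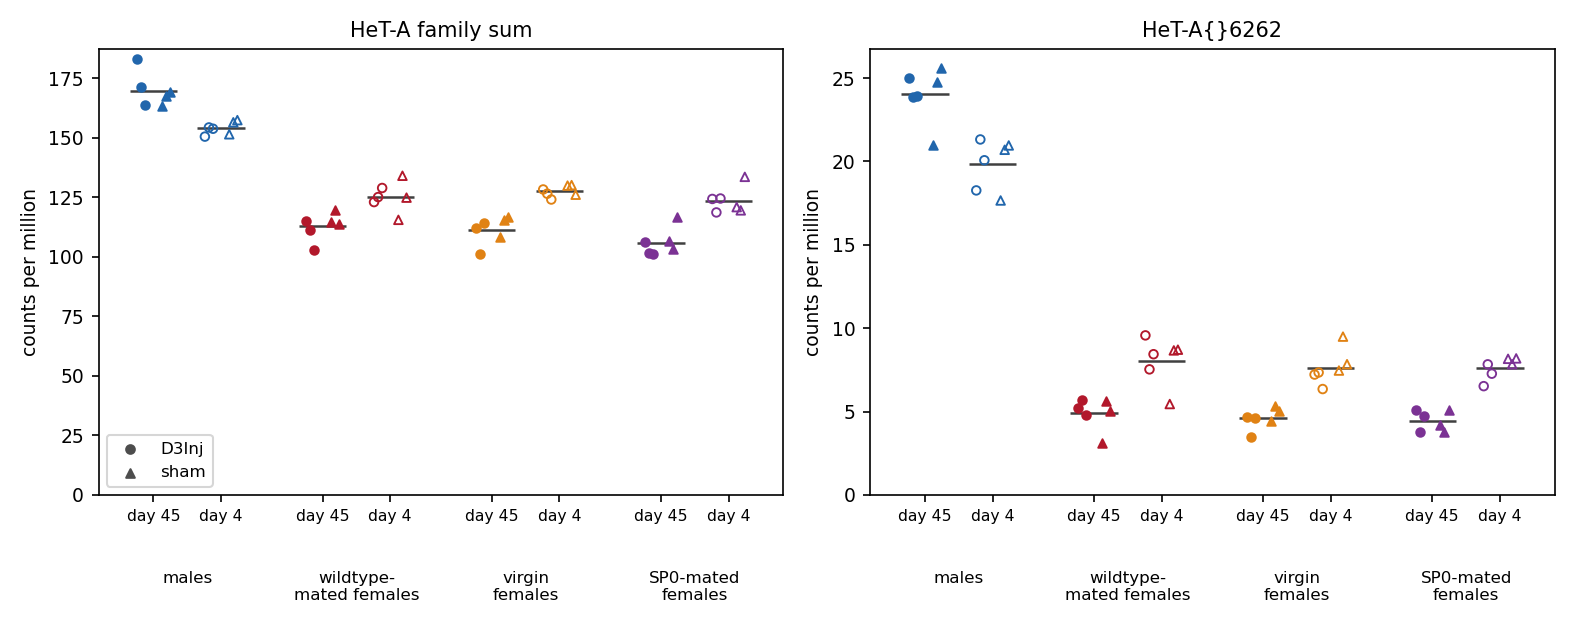
Level in CPM of the HeT-A family sum (left) and of HeT-A{}6262 (right) in each of the 48 libraries, by kind of fly and day (x axis; circles D3Inj, triangles sham, horizontal lines the mean of 6 libraries). Males stand above all females on both days, at 163 to 183 CPM on day 45 and 150.5 to 157 CPM on day 4 for the family sum, and the change with age is upward in males and downward in females.

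HeT-A{}6262 (FBti0102105, chr4:1314342-1320140), between genes near the end of chromosome 4, was higher in males on both days. Males had 21.0, 24.3 and 25.6 CPM on day 45 (lowest, median and highest of 6), against 3.14 to 5.67 CPM over the 18 female libraries. On day 4 males had 17.7, 20.4 and 21.3 CPM, against 5.45 to 9.57 CPM in females. The log2 fold change of males over females was 2.37 (SE 0.082) on day 45 and 1.35 (SE 0.074) on day 4, and the change with age differed between the sexes by 1.01 (SE 0.12, adjusted p = 9.6e-07 by edgeR). Over all insertions 5 were called for this difference of 411, all with a larger value in males, where 0.582% of all features were called in that direction and 1.65% in the other. The remaining 4 were Cr1a{}5031 (2.43, SE 0.55), HeT-A{}6274 (1.03, SE 0.20), HeT-A{}6268 (0.44, SE 0.10) and HeT-A{}6278 (0.25, SE 0.052). Cr1a{}5031 was rare, with 0.492 to 1.33 CPM in males on day 45 and 0 to 0.093 CPM on day 4. Such calls came to 3 with D3Inj libraries alone and 1 with sham libraries alone.

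Over all families, males and females differed at few insertions. On day 45, 16 of 400 tested insertions were higher in males and 13 lower, against 7.30% and 8.74% of all features. On day 4, 10 of 356 were higher and 18 lower, against 9.84% and 8.96% of all features. Of 347 insertions tested on both days, 7 were called higher in males on both and 8 lower on both. HeT-A copies made up 8 of the 16 higher on day 45 and 5 of the 10 higher on day 4, and none was lower. Besides HeT-A{}6262 they included HeT-A{}6276 (1.68 on day 45 and 1.38 on day 4), HeT-A{}4795 (0.62 and 0.36), HeT-A{}6278 (0.48 and 0.22), HeT-A{}4800 (1.63 on day 45), HeT-A{}6274 (0.82 on day 45), HeT-A{}6268 (0.57 on day 45), HeT-A{}6270 (0.23 on day 45) and HeT-A{}6256 (0.79 on day 4).

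The X chromosome held 8 of the 13 insertions lower in males on day 45 and 8 of the 18 on day 4. Over features of all chromosomes 8.74% and 8.96% were lower, and the share over X-linked features was not computed. Of 50 X-linked insertions tested on day 45, 4 were higher, and of 47 tested on day 4, 5 were higher. G3{}1 (FBti0019520, chrX:292626-292994), in an intron of CG13375, was lower by a log2 fold change of -0.66 (SE 0.12) on day 45 and -0.60 (SE 0.084) on day 4, and CG13375 itself stood at -0.65 and -0.53. Several of these X-linked insertions lie in a single gene, lncRNA:CR44997, whose copies were called lower in 2 of 6 cases on day 45 and in 5 of 6 on day 4. Among them were Rt1c{}269 (-0.50 and -0.44), G5{}3691 (-0.53 and -0.70) and, on day 4, Helena{}270 (-0.66). The intronic baggins{}11 in CG32814 was lower by -0.49 on day 45 and -0.50 on day 4, and Cr1a{}4356, between genes on X, by -0.78 and -1.02.

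Off the X chromosome, jockey{}1509 (chr4:414008-414630) was nearly absent from males. It had 12 counts in 6 male libraries on day 45 against 157 in 18 female libraries, and 15 counts in males on day 4 against 280 in females. The log2 fold change was -3.12 (SE 0.65) on day 45 and -2.79 (SE 0.49) on day 4. G6{}RR48300 was lower in males by -1.36 (SE 0.21) on day 45 and -1.14 (SE 0.26) on day 4, and the G6 sum by -0.60 (SE 0.11) and -0.48 (SE 0.12). Without the most abundant insertion of each family the G6 sum turned to 0.085 on day 45, and only 1 family was then called for sex on that day. On day 4 the G3 (-0.43), Helena (-0.30), Rt1c (-0.22) and Doc (-0.11) sums were also lower in males, although the Helena sum turned to 0.11 with insertions between genes alone. The Doc call was lost without male D3Inj library 1 (-0.090) and without male sham library 1 (-0.081) of day 4. Fat body and hemocyte markers moved with sex as well. On both days 5 of 6 fat body markers (Yp1, Yp2, Yp3, Lsp2, apolpp and fit) were lower in males and 1 was higher. Hemocyte markers were lower in males in 2 of 2 cases on both days. Over all features 8.74% were lower in males on day 45 and 8.96% on day 4. The part of these cell types in the sex differences was not tested.

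Genes of the silencing pathways were read on the same libraries. Of 32 listed genes 27 were tested, and 18 were higher on day 45 and 4 lower, against 33.7% and 32.4% of all features, with a median log2 fold change of 0.20 beside -0.002 over all features. The piRNA factors among them were vret (2.12, SE 0.11), vas (1.86, SE 0.20), krimp (1.82, SE 0.14), AGO3 (1.80, SE 0.16), nxf2 (1.64, SE 0.092), spn-E (1.58, SE 0.24), piwi (1.33, SE 0.077), qin (1.20, SE 0.057), del (0.81, SE 0.033) and aub (0.42, SE 0.087). Vasa and the Argonautes Piwi, Aubergine and AGO3 are best known from the germline, and spn-E encodes a helicase of the same pathway. Lower were tej (-0.46, SE 0.051), Panx (-0.23, SE 0.038), wde (-0.12, SE 0.016) and loqs (-0.10, SE 0.021). In the small interfering RNA pathway Dcr-2 (0.13, SE 0.020) and AGO2 (0.05, SE 0.020) were called higher by small amounts. AGO3 lies within the rising stretch of 3L described above, and whether its reads were counted for the insertions in its introns was not tested.

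Of 14 tested telomere genes, 13 were higher on day 45 and none was lower, against 33.7% and 32.4% of all features, with a median log2 fold change of 0.22. They included ver (1.33, SE 0.087), of the terminin capping complex, and rad50 (0.68, SE 0.030), of the repair complex it forms with mre11 (0.35, SE 0.042) and nbs (0.21, SE 0.025). The gene cav, which encodes the capping protein HOAP, was not called at 0.04 (SE 0.041). Cell type markers moved with age too. All 5 neuronal markers were lower (median -0.36), repo, the marker of glia, was higher by 0.35, and 2 of 2 hemocyte, 3 of 4 photoreceptor and 4 of 6 fat body markers were higher. Germline markers summed to 0.66 to 2.36 CPM on day 45 and 0.067 to 1.15 CPM on day 4, with 2 of 3 tested higher, vas being on both lists. The part of these cell types in the changes of insertions was not tested.

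The study asked what very mild head trauma on day 3 does to the brain, and for the insertions no comparison of D3Inj with sham gave a call. Over 8 comparisons (4 kinds on 2 days) 0 of 3024 tests of an insertion and 0 of 200 tests of a family sum passed the threshold in edgeR, and DESeq2 gave 0 as well. At an unadjusted p under 0.05 there were 127 insertion tests, or 4.20%, against 4.46% over all features, and 11 family tests, or 5.5% against 4.48% over all features of the family fit. Few features of any sort were called, 0.00836% of all tests among insertions and genes and 0.0100% in the family fit. The smallest adjusted p of a family was 0.73, for Doc3-element in SP0-mated females on day 45.

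Interval widths show what could have been seen. In wildtype-mated females on day 45, HeT-A had 103, 111 and 115 CPM in the 3 D3Inj libraries against 114, 115 and 120 CPM in the 3 sham libraries, a log2 fold change of -0.09 with a 95% interval of -0.20 to 0.01. In males on day 45 it had 164, 172 and 183 CPM in D3Inj libraries against 163, 168 and 169 CPM in sham libraries, a log2 fold change of 0.05 (interval -0.06 to 0.16). On day 4 the HeT-A intervals stayed between -0.12 and 0.10 in all 4 kinds. Doc in SP0-mated females on day 4 had 435, 455 and 462 CPM in D3Inj libraries against 392, 399.5 and 448 CPM in sham libraries, and its interval of 0.02 to 0.23 excluded 0 before adjustment only (adjusted p = 1 by edgeR). For Doc3-element in SP0-mated females on day 45 the interval was -0.52 to -0.08, also before adjustment. Sums of scarce families were far less precise, as in Doc2-element, which stood at 0.72 in virgin females on day 45 and at -0.47 on day 4 without a call.

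**Figure D5:**
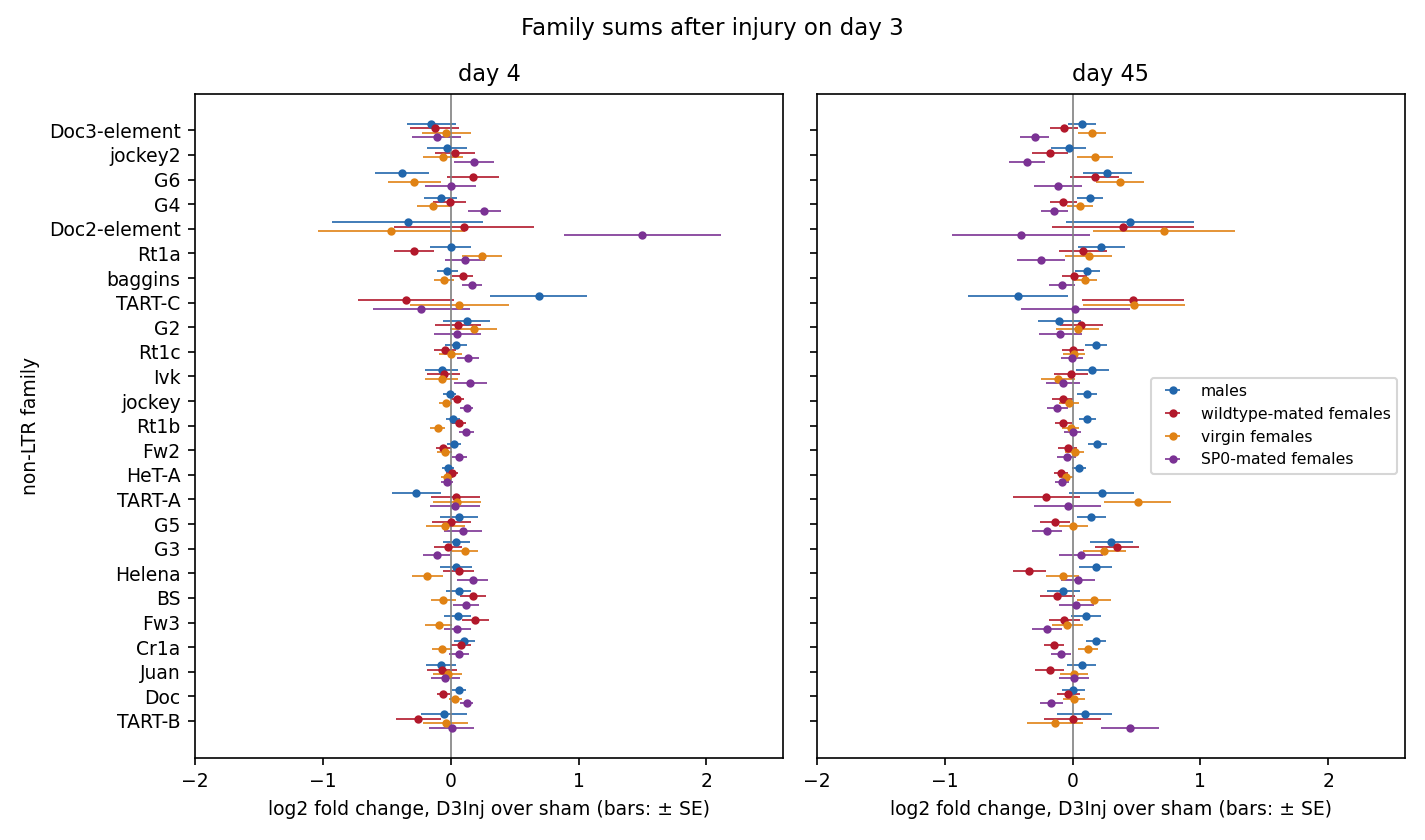
Log2 fold change of each family sum, D3Inj over sham (x axis, bars ± SE), on day 4 (left) and day 45 (right) for the 4 kinds of fly, with families on the y axis in the order of their change with age. Points of abundant families such as HeT-A and Doc lie near 0 with short bars, those of the scarce Doc2-element and TART-C scatter with long bars, and no family was called.

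Mating was compared between wildtype-mated, SP0-mated and virgin females with D3Inj and sham averaged, in 3 comparisons on each day. None of 2268 insertion tests and none of 150 family tests was called in edgeR. At an unadjusted p under 0.05 there were 161 insertion tests, or 7.10% against 8.84% over all features, and 21 family tests, or 14.0% against 9.27% over all features of the family fit. DESeq2 called 2 insertions and 1 family, all lower, and edgeR called 4 insertions and 1 family when the second D3Inj library of wildtype-mated females on day 4 was left out. In edgeR 0.0479% of all tests were called among insertions and genes and 0.0790% in the family fit. The smallest adjusted p was 0.13 (edgeR), for Rt1b between wildtype-mated and SP0-mated females on day 4, a log2 fold change of -0.15. HeT-A differed between wildtype-mated and virgin females by 0.02 on day 45 (95% interval -0.06 to 0.09) and by -0.02 on day 4 (interval -0.09 to 0.04).

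The 255 rows under short names were measured in the same way, and 9 of 9 such families were called with age. In that fit 34.5% of all features were called higher and 34.0% lower. R2 and R1A1 belong to the elements that insert into ribosomal RNA genes, and both rose. R2, a single row, had 54.1 ± 6.3 CPM on day 45 and 15.8 ± 2.4 CPM on day 4 (SD, n = 24 each), a log2 fold change of 1.78, and its levels did not overlap between the days (44.3 to 66.7 CPM against 10.0 to 20.3 CPM). R1A1 had 21.7 ± 3.0 CPM on day 45 and 6.55 ± 1.31 CPM on day 4 (SD, n = 24 each), a log2 fold change of 1.73. Ribosomal RNA was depleted before sequencing, and whether that depletion differed between the days was not tested. Doc4 (0.29) and G (0.12) were higher by less. F was lower by -0.31, with 254 ± 22.5 CPM on day 45 and 313 ± 23.6 CPM on day 4 (SD, n = 24 each), and X (-0.17), Doc2 (-0.14), Doc3 (-0.12) and I (-0.10) were lower by less.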

How the data were processed

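RNA of brains was sequenced in 48 libraries. The authors removed ribosomal RNA, made stranded libraries, and used FastQC, STAR (dm6) and featureCounts, per the submitters' processing notes. The deposited values are raw counts per gene or insertion. Their versions, strand setting and handling of multi-mapped reads are not stated in the sources. Row names were read from the Ensembl release 115 annotation, in which 79 gene rows had no entry, and 2 rows that matched no name stayed out of the named sets. The 24 libraries of a day were fitted together for sex, injury and mating, and all 48 for age, in edgeR 4.0.16 (R 4.3.3, limma 3.58.1) with 1 term per group, TMM scaling and filterByExpr, which left 14631 features on day 4, 15286 on day 45 and 15640 for age. Contrasts averaged over groups with equal weight. A second fit replaced the rows of each transposon family by their sum. CPM values use TMM library sizes, and intervals are the fold change ± 1.96 SE. DESeq2 1.42.0 was an alternative. The named insertions are the most abundant, the top copy of each family, the telomeric copies and the 10 largest changes in each direction per comparison. The members and lists were chosen with earlier results of these data known. Scripts were tested on simulated data. Counts limit precision, and 2 libraries of a group differed by more than sampling noise in every case.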

Additional observations from a re-analysis of the deposited data

Results flagged for a closer look

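These 6 results stood out because their change with age differed between the sexes when that difference was tested itself (male change less mean female change, log2 scale, edgeR). The HeT-A family sum differed by 0.33 (SE 0.042). Among single insertions the difference was 1.01 (SE 0.12) for HeT-A{}6262, 1.03 (SE 0.20) for HeT-A{}6274, 0.44 (SE 0.10) for HeT-A{}6268, 0.25 (SE 0.052) for HeT-A{}6278 and 2.43 (SE 0.55) for Cr1a{}5031. All 4 HeT-A copies named here are themselves part of the family sum. Cr1a{}5031 rests on male levels of at most 0.093 CPM on day 4. With D3Inj libraries alone 3 insertions were called for this difference and with sham libraries alone 1.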

How the results depend on the processing

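Taking each sample from the deposit's record in place of the table header ended every call: 0 insertions and 0 families were called in any age or sex comparison. Of the sums, the age change became 0.028 for BS, 0.0068 for Cr1a, 0.040 for Fw3, 0.039 for G5 and 0.0063 for HeT-A, and for single copies 0.079 for HeT-A{}1685, 0.062 for HeT-A{}6262 and 0.024 for HeT-A{}6276 (log2 scale throughout). The male difference on day 45 became 0.15 for Cr1a{}4356, 0.28 for G6, 0.61 for G6{}RR48300 and -0.30 for HeT-A{}6268. On day 4 it became 0.023 for G3, 0.56 for G6, 0.18 for Helena, 0.10 for Rt1c, -0.20 for HeT-A, 0.17 for baggins{}11, 0.61 for Cr1a{}4356, 0.79 for Cr1a{}5031, 0.18 for G5{}3691, 1.28 for G6{}RR48300, 0.23 for Helena{}270, 0.85 for jockey{}1509, 0.17 for Rt1c{}269, -0.19 for HeT-A{}4795, -0.78 for HeT-A{}6256, -0.99 for HeT-A{}6262, -1.07 for HeT-A{}6276 and -0.083 for HeT-A{}6278, and the age difference between the sexes -0.40 for Cr1a{}5031. The cause of the mismatch was not tested.

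With insertions between genes alone, 13 families were higher and 6 lower with age, G3 stood at 0.14, G5 at 0.020 and Helena at 0.97, and Helena at 0.11 for males on day 4. Without the top insertion of each family, 6 families were lower with age, 9 were called in wildtype-mated females and 1 for sex on day 45, with G3 at 0.15 for age and G6 at 0.085 for sex on day 45. D3Inj libraries alone gave 9 families in virgin females and 3 insertions whose age change differed by sex, and sham libraries alone gave 8 families in males, 110 insertions in SP0-mated females and 1 insertion whose age change differed by sex. Both use fewer libraries. DESeq2 gave 8 such insertions, and for mating 2 insertions and 1 family, all lower. All counts stayed within 1.5 times their value with RLE scaling, TMM over genes alone, no filter, and, both chosen after seeing the data, without the 4 libraries high in gut markers and with short names counted in.

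Leaving out 1 library at a time gave 99 to 109 insertions higher and 143 to 153 lower with age, 158 to 181 called in males, 152 to 166 in wildtype-mated, 148 to 169 in virgin and 154 to 172 in SP0-mated females, 4 to 7 for the difference of age changes, 23 to 31 for sex on day 4, 23 to 32 on day 45, 0 to 0 for injury and 0 to 4 for mating (4 without the second D3Inj and 2 without the first sham library of wildtype-mated females on day 4). For families it gave 6 to 8 higher and 10 to 11 lower with age, 13 to 14 in males, 12 to 16 in wildtype-mated, 12 to 15 in virgin and 13 to 16 in SP0-mated females, 1 to 1 for the difference, 5 to 7 for sex on day 4, 2 to 4 on day 45 (4 without wildtype-mated sham library 1 of day 45), 0 to 0 for injury and 0 to 1 for mating.

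Replicate numbers showed no clear pairing of the samples, as 4 of 24 same-numbered pairs correlated above 0.1 (from -0.16 to 0.18). With 3 libraries per group this cannot show that same-numbered cohorts were unrelated. With the replicate block, 102 insertions were higher and 148 lower with age, 31 and 30 were called for sex on day 4 and day 45, 6 for the difference of age changes and 0 for injury and mating, and 7 families were higher and 10 lower with age. Too few counts to test were found for 331 of the 742 insertions, 128 of them at 0 in all libraries.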
